A study of Caenorhabditis elegans with 12 samples.

Results

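The RNA that a MYC antibody brought down from whole young adult Caenorhabditis elegans was compared between 2 transgenic strains, neither of which is described as carrying a MYC tag, so that these libraries are background controls. The comparison used 4 of the 12 libraries of the series, chosen by strain and antibody: 2 MYC immunoprecipitations (IPs) of the CEY1 strain and 2 of the CEY2 strain. The CEY1 strain carried rrrSi300, in which the cey-1 promoter drives a singly FLAG-tagged cey-1 with its own 3' UTR, and the CEY2 strain carried rrrSi233, in which the cey-2 promoter drives a singly FLAG-tagged cey-2 with its own 3' UTR. Both transgenes sit on chromosome I, and both go on with an operon linker, a PEST:GFPH2B reporter, the tbb-2 3' UTR and an unc-119(+) marker. The state of the endogenous cey genes is not described, and a strain stands for a single labelled insertion. Worms of every group hatched overnight, were grown from the first larval stage on OP50 bacteria to young adults, and were frozen. The MYC libraries of the other strain of the series, CEY4 (FLAG-tagged CEY-4), and the FLAG libraries of the CEY1 and CEY2 strains are given where they place a value. Whether replicates are separate cultures is not in the labels, so the p-values cover no more than the spread from library to library, which may be technical.

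The tagged proteins are Y-box proteins, which bind RNA through a cold-shock domain. Genes for cuticle collagens, for the enzymes that mature them, for the apical matrix and for the timing factor LIN-42 are switched on and off with each moult. A hermaphrodite makes sperm in the last larval stage and oocytes as an adult, its intestine then makes yolk, and the adult gonad holds germ cells in meiosis and, later, embryos in the uterus.

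The CEY1 MYC libraries held 4713239 and 6666476 counts and the CEY2 MYC libraries 3605114 and 3353523, against 12802412 and 11651770 for CEY4 MYC and 22915137 to 33529549 for the FLAG libraries. At the smallest total, 1 CPM (counts relative to library size) stands for 3.35 counts. Replicates of a MYC group had a correlation of 0.976 to 0.988 across genes, and their median absolute log2 difference was 0.154 to 0.204. Levels below are CPM scaled by trimmed mean of M values (TMM), which are not corrected for gene length and so are read between libraries and not between genes. All log2 differences are CEY1 minus CEY2 ± SE, with Benjamini-Hochberg adjusted p from edgeR's quasi-likelihood test over 12573 genes, and a gene is called at an adjusted p under 0.05. Adult markers were present in every MYC library: the adult collagen gene col-19 read 1336 and 1479.8 CPM in CEY1 and 1091 and 1147 CPM in CEY2, and the 6 vitellogenin genes, which encode yolk proteins, together read 22284 to 29775 CPM.

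The mRNA of the tagged protein was not higher in the MYC libraries of its own strain than in those of the other compared strain. The cey-1 mRNA read 419.3 and 415.0 CPM in the CEY1 libraries, 481.7 and 526.3 CPM in the CEY2 libraries and 212.0 and 216.3 CPM in the CEY4 libraries, so it was lower in CEY1 than in CEY2 (−0.27 ± 0.07, adjusted p = 0.00211). It missed the threshold without CEY2 replicate 2 (−0.20). When all 12 libraries were fitted together it turned to 0.13, in a fit that moved the median of all genes up by 0.40. Relative to CEY4 MYC, cey-1 was higher in CEY1 (log2 difference CEY1 minus CEY4 0.96 ± 0.07, adjusted p = 2.77e-12) and in CEY2 (CEY2 minus CEY4 1.23 ± 0.07, adjusted p = 5.09e-16). The cey-2 mRNA read 1037 and 1179 CPM in CEY1 and 810.4 and 747.6 CPM in CEY2, higher in CEY1 (0.51 ± 0.07, adjusted p = 1.81e-07). In the FLAG libraries, with their own scaling, the order followed the transgene: cey-1 had means of 1586 CPM in CEY1 and 379 in CEY2, and cey-2 of 136 and 1771. Of the untagged Y-box genes, cey-3 was higher in CEY1 (0.39 ± 0.07, adjusted p = 3.62e-05) and cey-4 was higher in CEY2 (−0.55 ± 0.06, adjusted p = 9.84e-09). The beta-tubulin gene tbb-2, which lends its 3' UTR to both transgenes, differed by 0.17 ± 0.06 (adjusted p = 0.0136) and missed the threshold without CEY2 replicate 2 (0.15). No call was made for the marker gene unc-119 (−0.09 ± 0.49, 2.74 to 4.30 CPM), for the cold-shock-domain timing gene lin-28 (−0.28 ± 0.17, though −0.49 and called without CEY2 replicate 2) or for dpy-30 (−0.03 ± 0.20), a subunit of histone methyltransferase complexes. The MYC libraries thus hold no mRNA marker that places each of them in its labelled strain.

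The control RNA of the strains differed in many genes and in both directions. In CEY1, 3283 genes were higher (26.1% of those tested), and in CEY2 3372 genes were higher (26.8%), which together are 52.9%. Shares given below for gene lists are to be set against these 26.1% and 26.8%, unless another level is named. By size the sides were unequal: 1049 called genes were at least 2-fold higher in CEY1 (8.34%) and 1978 in CEY2 (15.7%). At 4-fold the counts were 254 and 832, and at 8-fold 73 and 309. The median log2 difference over all tested genes was −0.02, with quartiles at −0.71 and 0.47. Both libraries of one strain lay beyond both of the other for 9528 genes, 75.8% of those tested and more than were called, so groups that do not overlap are common here and mark no gene by themselves. For 10 gene lists edgeR called 0 members in one direction: DESeq2 also called 0 there, and 0 had an unadjusted p under 0.05, except for 1 of the early embryonic genes.

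Genes of low and of high level did not divide alike. Of 4938 genes with a mean under 10 CPM over the 6 MYC libraries, 648 were higher in CEY1 and 1346 in CEY2. Of 5289 genes from 10 to 100 CPM, 1511 and 1529 were higher in CEY1 and CEY2. Of 2237 genes from 100 to 1000 CPM the order was turned round, with 1081 higher in CEY1 and 457 in CEY2, and above 1000 CPM the counts were 43 and 40 of 109. The split of calls depends on scaling: with all 12 libraries fitted together, where FLAG libraries enter the scaling, 6029 genes were higher in CEY1 and 2253 in CEY2 (72.8% of calls higher in CEY1, against 49.3%), and the median of all genes moved up by 0.40. Differences are therefore best read against the median of all genes.

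**Figure D1:**
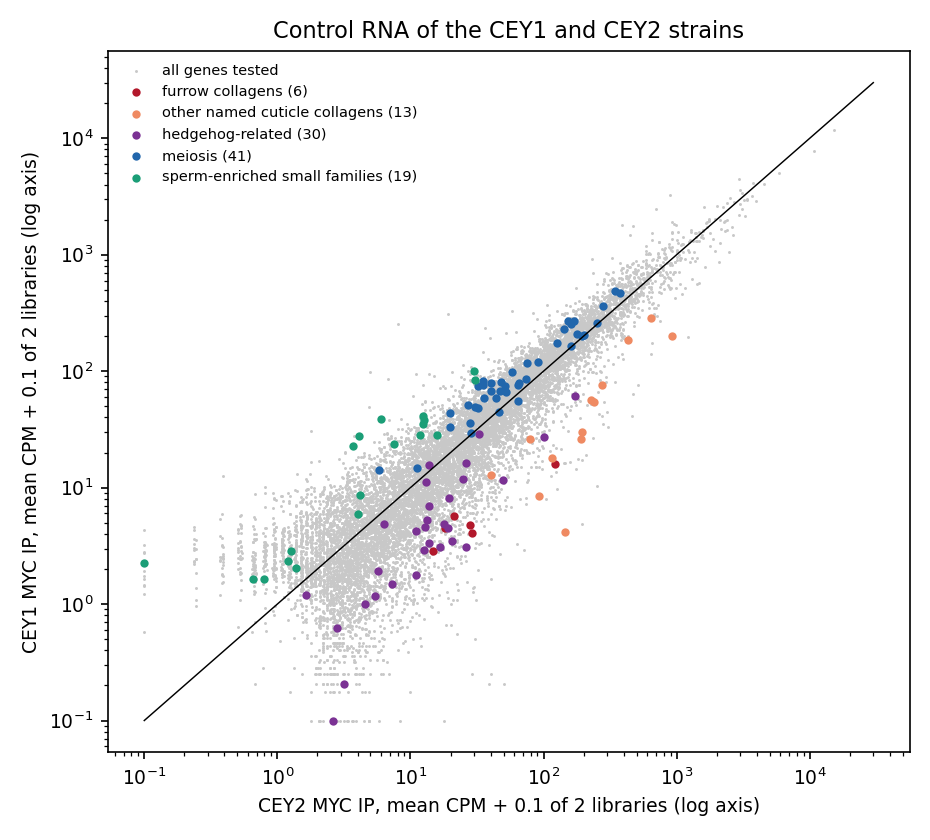
Each point is a gene tested, at its mean TMM-scaled CPM plus 0.1 over the 2 CEY2 MYC libraries (x, log axis) and the 2 CEY1 MYC libraries (y, log axis), with 5 gene lists in colour and the number of tested members in the legend. The line marks equal values. Collagen and hedgehog-related genes lie mostly below it, and meiosis and sperm genes mostly above it.

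The CEY4 strain gives a point of reference. Against CEY4 MYC, 9.81% of genes were called for CEY1 and 53.4% for CEY2, in contrasts that share the CEY4 libraries. The median absolute log2 difference was 0.21 for CEY1 against CEY4, 0.55 for CEY2 against CEY4 and 0.57 for CEY1 against CEY2. Called genes at least 2-fold apart numbered 418, 2999 and 3027 in the same order. The CEY2 MYC libraries were also the shallowest, and the part of depth in these counts was not tested.

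The genes furthest above in CEY2 were collagens and genes with scattered functions. The collagen gene col-36 had 0 and 2 counts in the CEY1 libraries and 137 and 148 in the CEY2 libraries, a ratio of 226 (95% exact interval 62.0 to 1876, counting error only). For col-37 the counts were 0 and 2 against 109 and 96, a ratio of 163 (44.5 to 1352). Both collagens were thus close to the floor of detection in CEY1, and they were low in CEY4 as well (0.396 and 0.952 CPM for col-36). The infection response gene irg-4 read 4.73 and 4.71 CPM in CEY1, 203.1 and 186.4 in CEY2 and 4.91 and 3.63 in CEY4 (−5.36 ± 0.17, adjusted p = 3.75e-23). The collagen gene dpy-14 read 3.01 and 5.17 CPM against 144.7 and 145.7 (−5.09 ± 0.19, adjusted p = 1.50e-21), and col-41 10.97 and 9.58 CPM against 256.9 and 251.2 (−4.64 ± 0.14, adjusted p = 4.74e-24). In each of these the CEY2 libraries agreed closely with each other and stood far from the other 4 libraries.

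Among the other large differences on the CEY2 side, ptr-22 encodes a patched-related membrane protein (−5.35 ± 0.53), and col-54 is a further collagen (−5.07 ± 0.43). The metallothionein gene mtl-1, which encodes a small metal-binding protein, read 0.215 and 0.912 CPM in CEY1 and 19.7 and 16.998 in CEY2 (−4.85 ± 0.52). The leucine zipper genes ces-2, known for specifying the death of a neuronal sister cell, and zip-8 differed by −5.01 ± 0.63 and −4.53 ± 0.35. The F-box gene fbxc-51 read 2.58 and 3.04 CPM in CEY1, 75.1 and 67.4 in CEY2 and 20.6 and 19.5 in CEY4, so that CEY4 lay between (−4.64 ± 0.23). The C-type lectin gene clec-169 completed the 12 (−4.54 ± 0.39). Adjusted p for these genes was between 3.68e-18 (fbxc-51) and 4.36e-08 (ces-2).

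The genes furthest above in CEY1 had smaller differences, rank for rank, than those furthest above in CEY2. The lysozyme gene lys-4 read 245.9 and 263.9 CPM in CEY1, 7.64 and 8.21 in CEY2 and 137.4 and 121.9 in CEY4 (5.01 ± 0.15, adjusted p = 4.74e-24). The collagen gene col-94 read 94.2 and 103.1 CPM against 6.55 and 3.22 (4.32 ± 0.22), and its relatives col-92 and col-93 differed by 3.68 ± 0.20 and 2.71 ± 0.12. The treatment of reads that match several like genes is not stated, so the values of such related collagens may not be independent. The methionine sulfoxide reductase gene msra-1, which repairs oxidised methionine, read 309.6 and 304.5 CPM in CEY1, 18.02 and 20.2 in CEY2 and 94.1 and 92.2 in CEY4 (4.01 ± 0.12, adjusted p = 4.74e-24). All of these were low in CEY2 relative to the other 4 libraries.

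Of the remaining genes of that ranking, 3 belong to families expressed in sperm. They are ssp-10 (2.74 ± 0.29), msd-4 (2.68 ± 0.25) and sss-1 (2.67 ± 0.31). The aspartyl protease gene asp-13 read 301.0 and 355.6 CPM in CEY1 and 52.97 and 62.4 in CEY2 (2.51 ± 0.10, adjusted p = 3.46e-20). The lectin gene clec-47 (2.57 ± 0.20), the enoyl-CoA hydratase gene ech-9 (2.45 ± 0.41) and the F-box gene fbxa-108 (2.45 ± 0.34) closed the list, with adjusted p of at most 7.05e-06 (ech-9). In CEY4, ech-9 read 3.33 and 4.41 CPM, near CEY2 (3.004 and 1.47) and below CEY1 (12.3 and 12.62).

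**Figure D2:**
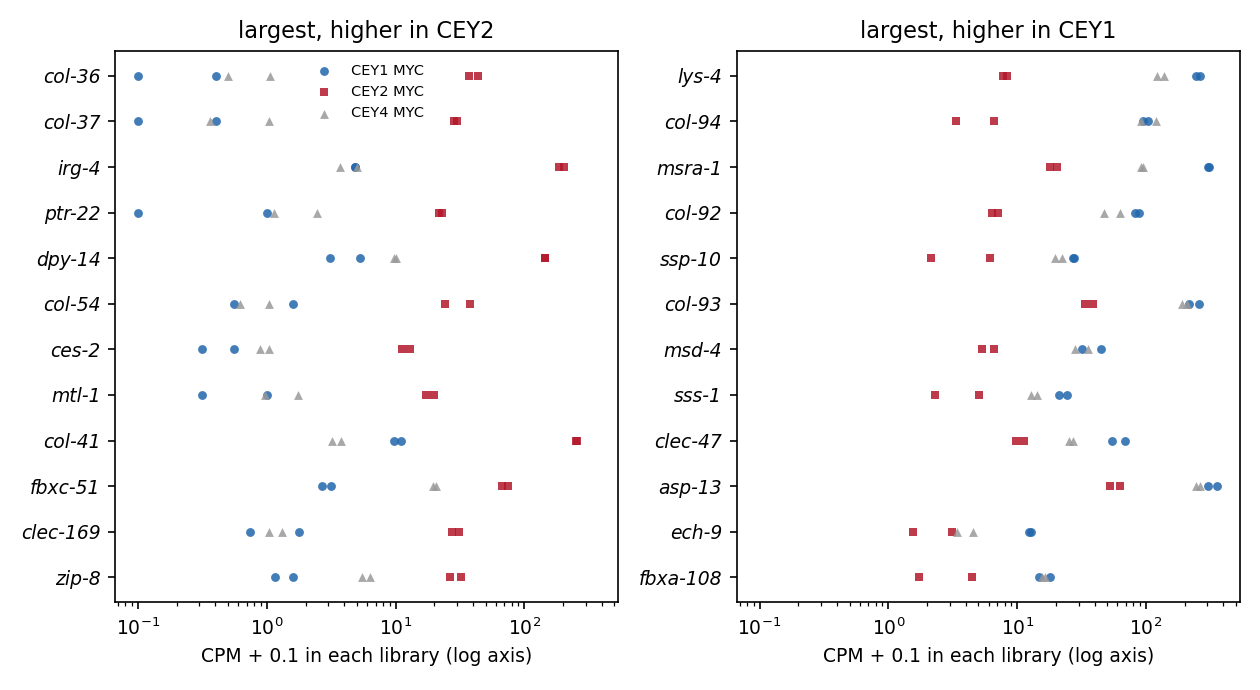
TMM-scaled CPM plus 0.1 in each MYC library (log axis) for the 12 genes with the largest differences in each direction, left higher in CEY2 and right higher in CEY1. Circles are CEY1, squares CEY2 and triangles CEY4 libraries, with 2 points for each. The squares stand apart in nearly every line; for fbxc-51, zip-8, dpy-14, msra-1, clec-47 and lys-4, among others, the triangles lie between, and for ech-9 they lie near the squares.

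Cuticle collagen genes were shifted toward CEY2. Of the col family, which encodes the bulk of the worm's exoskeleton, 113 of 156 genes could be tested. Of these, 73 were higher in CEY2 (64.6%, against 26.8% of all genes) and 17 in CEY1 (15.04%, against 26.1%), with a median of −1.03. In whole worms, fewer cells of a type and less RNA per cell cannot be told apart, which holds for every tissue list here. The shift toward CEY2 was seen among collagen genes up to 1000 CPM, and not in those above. Under 10 CPM the counts were 23 higher in CEY2 and 1 in CEY1 of 39 (median −2.01), and from 10 to 100 CPM they were 34 and 4 of 40 (median −1.21). Higher in CEY2 were thus 59.0% and 85%, against 27.3% and 28.9% of all genes at these levels. From 100 to 1000 CPM 14 and 6 of 23 were called (median −0.35), and above 1000 CPM 2 and 6 of 11 (median 0.28). There the shares higher in CEY2 were 60.9% and 18.2%, against 20.4% and 36.7% of all genes.

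The summed col family signal was accordingly close in both strains, at 23845 and 26992 CPM in CEY1 and 25566 and 26658 CPM in CEY2. At the top of the range col-129 read 2284 and 2607 CPM in CEY1, 694.1 and 707.5 in CEY2 and 2095 and 2035 in CEY4 (1.80 ± 0.07, adjusted p = 1.48e-21). In the same direction col-81 read 1723 and 1891 CPM against 383.6 and 395.9 (2.21 ± 0.07), and col-139 1604 and 1929 against 467.2 and 476.5 (1.91 ± 0.07). The adult collagen col-19 was higher in CEY1 by 0.33 ± 0.07 (adjusted p = 8.57e-05). Of the 4 tested genes on the adult collagen list it was the 1 higher in CEY1. The other 3, rol-6, bli-1 and bli-2, were higher in CEY2 (list median −1.64). Members of this list, rol-6 among them, are also counted with the other named cuticle collagens below. The collagen set of CEY2 thus held more of many genes read below 1000 CPM and less of several read above it.

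**Figure D3:**
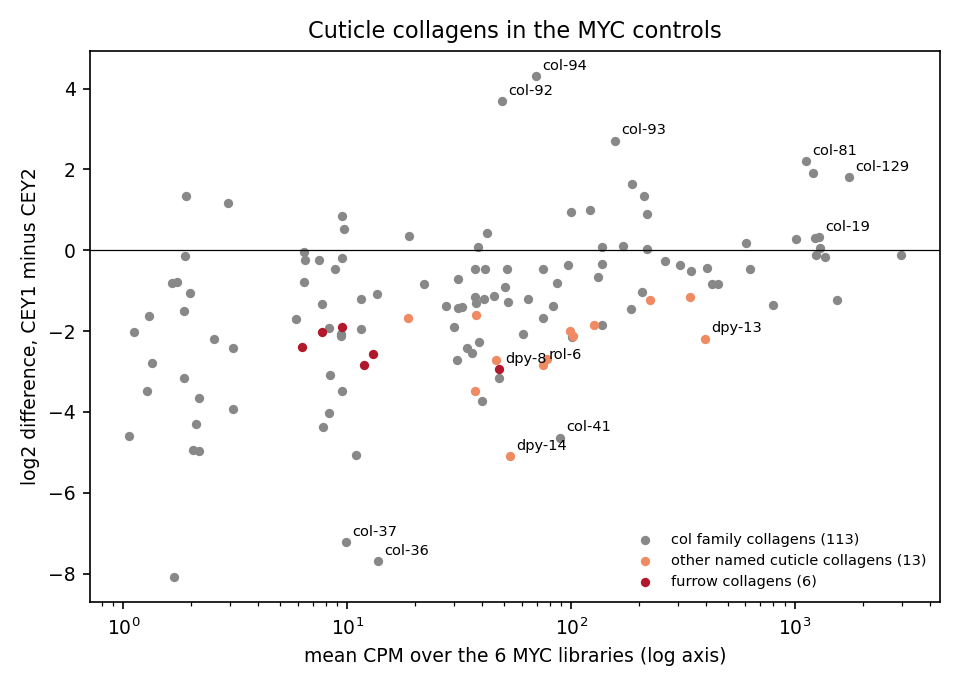
Each point is a collagen gene, at its mean TMM-scaled CPM over the 6 MYC libraries (x, log axis) and its log2 difference CEY1 minus CEY2 (y). Grey points are the col family, orange the other named cuticle collagens and dark red the furrow collagens. Most points under 100 CPM lie below 0, while 6 of 11 col genes above 1000 CPM were called higher in CEY1; fitted differences of genes with almost no counts in CEY1, such as col-36, depend on the prior count of the fit.

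The collagens named for body shape mutants were higher in CEY2 without exception. All 6 furrow collagens, which form the annular furrows of the cuticle, were called, with a median of −2.48, and their sum was 33.6 and 40.7 CPM in CEY1, 218.4 and 247.6 in CEY2 and 17.3 and 17.7 in CEY4. Among them dpy-8 read 14.8 and 16.7 CPM against 112.2 and 131.6 (−2.94 ± 0.16), dpy-7 3.87 and 4.1 against 28.4 and 29.6 (−2.85 ± 0.29) and dpy-10 4.09 and 5.17 against 24.03 and 32.2 (−2.58 ± 0.28). All 13 other named cuticle collagens were called as well (median −2.13). The most strongly read of them, dpy-13, stood at 181.3 and 220.9 CPM in CEY1, 901.6 and 937.5 in CEY2 and 70.2 and 65.3 in CEY4 (−2.19 ± 0.08, adjusted p = 2.49e-21). The cuticle collagens rol-6 (−2.85 ± 0.13), sqt-2 (−2.69 ± 0.13), bli-1 (−1.59 ± 0.16) and bli-2 (−1.69 ± 0.22) followed the same order. For the genes just named other than dpy-10, the CEY1 mean lay between those of CEY2 and CEY4. The dpy-7 difference between CEY1 and CEY4 was not called (CEY1 minus CEY4 0.59 ± 0.34, adjusted p = 0.312). For dpy-14, also among the 13, CEY4 lay between (9.90 and 9.69 CPM).

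Enzymes that mature collagen were split. Of 16 tested, 8 were higher in CEY2 (50%) and 3 in CEY1 (18.8%), with a median of −0.43. The prolyl 4-hydroxylase gene phy-2 read 14.8 and 19.5 CPM in CEY1 and 179.7 and 211.3 in CEY2 (−3.49 ± 0.15, adjusted p = 7.03e-20). Its partner catalytic subunit dpy-18 (−1.69 ± 0.15) and the shared subunit gene pdi-2 (−0.78 ± 0.08) differed in the same direction, whereas the disulphide isomerase gene pdi-1 was higher in CEY1 (0.74 ± 0.08, adjusted p = 1.09e-09).

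Moulting and apical matrix genes were mostly higher in CEY2, 19 of 26 (73.1%) against 1 higher in CEY1 (3.85%), with a median of −1.41. The moulting gene mlt-11, which encodes a protein with protease inhibitor domains, read 45.6 and 39.1 CPM in CEY1, 255.8 and 266.4 in CEY2 and 17.7 and 18.7 in CEY4 (−2.63 ± 0.11, adjusted p = 3.78e-20). The fibrillin-like matrix gene fbn-1 read 9.04 and 15.8 CPM against 107.3 and 121.6 (−3.16 ± 0.18), and noah-1, a zona pellucida domain protein of the apical matrix, 18.1 and 22.8 against 110.0 and 113.1 (−2.43 ± 0.15). The single exception was xpg-1 (0.45 ± 0.09), an orthologue of a human DNA repair nuclease that is not known as a matrix protein. Hedgehog-related genes, whose products are secreted by epithelia, were higher in CEY2 for 25 of 30 (83.3%) and in CEY1 for 0 (median −1.89). Examples were grl-16 at 66.04 and 56.1 against 167.4 and 177.0 CPM (−1.50 ± 0.12), qua-1 (−1.90 ± 0.15) and wrt-10 (−3.11 ± 0.33). Of 17 cuticlins, the insoluble proteins of the cuticle, 9 were higher in CEY2 (52.9%), among them cut-2 (−0.99 ± 0.17). In CEY1 1 was higher (5.88%), cutl-18 (1.09 ± 0.35). The last missed the threshold without CEY1 replicate 2 (0.98) or CEY2 replicate 1 (0.91).

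Developmental timing genes leaned the same way, with 13 of 18 higher in CEY2 (72.2%) and 1 in CEY1 (5.56%), at a median of −0.65. The Period homologue lin-42 read 36.8 and 33.1 CPM in CEY1, 294.9 and 268.4 in CEY2 and 14.1 and 12.63 in CEY4 (−3.02 ± 0.11, adjusted p = 1.63e-21). The hunchback-like gene hbl-1 read 13.98 and 15.8 CPM against 63.6 and 61.5 (−2.06 ± 0.18, adjusted p = 1.28e-11), and ain-1, a partner of the microRNA Argonautes, 96.4 and 79.5 against 223.1 and 182.0 (−1.21 ± 0.11). The long non-coding RNA lep-5 was the exception, with 12.3 and 11.1 CPM in CEY1 and 5.46 and 2.05 in CEY2 (1.61 ± 0.37, adjusted p = 0.000528).

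The epidermis, which makes the cuticle, was higher in CEY2 by its own markers too. Of 20 hypodermis and seam genes 16 were higher in CEY2 (80%) and 1 in CEY1 (5%), with a median of −0.71. Among the 16, dpy-7 is also a furrow collagen. The transcription factor gene blmp-1 read 24.7 and 21.7 CPM against 60.9 and 63.6 (−1.43 ± 0.16), and the spectraplakin gene vab-10 1365 and 1380.5 against 1785 and 1941 (−0.44 ± 0.06). The exception was the intermediate filament gene ifb-1 (0.19 ± 0.08, adjusted p = 0.0473), which missed the threshold without CEY1 replicate 2 (0.18), CEY2 replicate 1 (0.19) or CEY2 replicate 2 (0.21). Epidermal antimicrobial peptide genes were higher in CEY2 for 9 of 11 (81.8%) and in CEY1 for 0 (median −1.35). Among them nlp-29 read 5.59 and 7.45 against 22.7 and 24.03 CPM (−1.81 ± 0.26) and nlp-31 16.995 and 19.8 against 53.8 and 40.7 (−1.35 ± 0.18).

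The highest list medians, toward CEY1, were those of sperm genes. Of 29 sperm genes 16 were higher in CEY1 (55.2%, against 26.1% of all genes) and 2 in CEY2 (6.90%, against 26.8%). The median of these 29 genes was 0.99. The sperm phosphatase genes gsp-3 and gsp-4 read 27.3 and 25.7 CPM against 10.9 and 8.21 (1.46 ± 0.23) and 19.6 and 16.1 against 4.92 and 4.69 (1.88 ± 0.29), and the myosin gene spe-15 50.8 and 57.5 against 25.9 and 29.01 (0.99 ± 0.15). On the CEY2 side the kinase gene ttbk-7 differed by −1.18 ± 0.15. The small families expressed in sperm, 19 of 31 of them tested, were higher in CEY1 for 13 (68.4%) and in CEY2 for 0 (median 1.46). Among them ssq-2 read 111.6 and 88.02 against 35.2 and 24.6 CPM (1.72 ± 0.16, adjusted p = 6.43e-11).

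The sums of these small families were 521.9 and 463.2 CPM in CEY1, 179.4 and 138.0 in CEY2 and 425.9 and 354.9 in CEY4. Major sperm proteins, which drive sperm crawling, were near the floor: 3 of 30 genes passed the filter, and their sums were 13.3 and 11.7 CPM in CEY1 and 4.91 and 2.34 in CEY2. Of these, msp-49 (2.97 ± 0.72, adjusted p = 0.000878) and msp-142 (1.49 ± 0.48, adjusted p = 0.00908) were called, the latter not without CEY1 replicate 1 (1.26) or CEY2 replicate 2 (1.28). These genes are near-identical copies, so their single values are uncertain. CEY4 lay below CEY1 and above CEY2 in the sums of the small sperm families, and also for gsp-3 (18.8 and 21.5) and gsp-4 (12.03 and 13.1).

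Germline genes outside sperm were higher in CEY1 by smaller amounts and in many members. Of 41 meiosis genes 30 were higher in CEY1 (73.2%, against 26.1% of all genes) and 0 in CEY2 (median 0.52). From 100 to 1000 CPM, the level at which the meiosis list stands on average, 48.3% of all genes were higher in CEY1 (median 0.19). The gene spo-11, whose product makes the DNA breaks of meiotic recombination, read 84.5 and 78.6 CPM in CEY1, 37.95 and 32.5 in CEY2 and 82.9 and 83.7 in CEY4 (1.205 ± 0.13, adjusted p = 2.26e-09). The chromosome pairing gene zim-3 (1.23 ± 0.14), the crossover gene him-14 (1.12 ± 0.13) and the break repair nuclease gene mre-11 (0.82 ± 0.08) had similar differences. Summed over the list, meiosis genes read 5339.7 and 5311 CPM in CEY1, 3970.1 and 3889 in CEY2 and 5613 and 5718 in CEY4.

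Genes of germline RNA-binding proteins and P granules were higher in CEY1 for 35 of 47 (74.5%) and in CEY2 for 5 (10.6%), with a median of 0.32. Of all genes from 100 to 1000 CPM, where this list stands on average, 48.3% and 20.4% were higher in CEY1 and CEY2. The Pumilio family gene puf-8 read 242.7 and 221.3 CPM against 127.8 and 119.9 (0.90 ± 0.09) and the P-granule gene pgl-2 60.9 and 67.8 against 22.9 and 24.03 (1.46 ± 0.15), while sqd-1, a homologue of a fly hnRNP, was higher in CEY2 (−0.57 ± 0.06). Small RNA pathway genes, which share members with that list, were higher in CEY1 for 36 of 62 (58.1%) and in CEY2 for 8 (12.9%). Their median was 0.37, and they too stand on average between 100 and 1000 CPM. The Argonaute genes csr-1 (0.98 ± 0.08), ppw-2 (1.12 ± 0.09) and hrde-1 (0.73 ± 0.06) were higher in CEY1, and wago-1 was higher in CEY2 (−0.52 ± 0.08).

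Oocyte genes differed by less. Of 44 oocyte and eggshell genes 22 were higher in CEY1 and 3 in CEY2 (median 0.19), which is close to the 48.3% higher in CEY1 and the median of 0.19 over all genes from 100 to 1000 CPM, the level at which the list stands on average. The maternal zinc-finger gene pos-1 read 1160.4 and 1393 CPM against 740.0 and 723.0 (0.80 ± 0.07), and the egg surface gene egg-1 708.6 and 758.0 against 418.9 and 429.0 (0.79 ± 0.07). The caveolin gene cav-1 was higher in CEY2, at 77.8 and 83.2 against 29.5 and 34.2 CPM (−1.33 ± 0.14). Cell cycle and DNA replication genes were higher in CEY1 for 34 of 65 and in CEY2 for 6 (median 0.22, again near those of all genes from 100 to 1000 CPM), with cdk-1 at 310.8 and 374.6 against 179.1 and 183.8 CPM (0.92 ± 0.09), the spindle kinesin gene zen-4 at 0.86 ± 0.08, and the phosphatase gene cdc-25.2 on the other side (−1.37 ± 0.18).

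Genes that embryos switch on early were higher in CEY2. Of 26 tested, 17 were higher in CEY2 by edgeR (65.4%, against 26.8% of all genes) and 0 in CEY1 (median −1.15). In the CEY1 direction DESeq2 also called 0, and 1 gene had an unadjusted p under 0.05. The very early transcript vet-6 read 5.16 and 2.43 CPM in CEY1, 34.4 and 46.9 in CEY2 and 21.5 and 27.6 in CEY4 (−3.49 ± 0.27, adjusted p = 9.86e-13). The zinc-finger gene ztf-11 read 3.01 and 3.19 CPM against 17.5 and 23.2 (−2.70 ± 0.31), and the foregut factor gene pha-4 12.05 and 7.75 against 42.05 and 37.5 (−2.04 ± 0.24). For vet-6 and ztf-11 the CEY4 libraries lay between the other strains. Several genes of this list, pha-4 among them, also act in larvae and adults.

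Histone genes showed large single differences. Of 28 tested, 14 were higher in CEY2 (50%) and 6 in CEY1 (21.4%), with a median of −0.64, while 78 stand in the table. The core histone gene his-4 read 58.5 and 69.02 CPM in CEY1, 464.5 and 467.4 in CEY2 and 76.4 and 64.7 in CEY4 (−2.86 ± 0.10, adjusted p = 1.89e-22), and the linker histone gene his-24 8.82 and 10.5 against 127.0 and 127.2 (−3.70 ± 0.18). The linker histone gene hil-4 was higher in CEY1 (0.82 ± 0.09). Core histone genes are near-identical copies, and their single values are uncertain. Chromatin genes divided into 24 higher in CEY1 and 27 in CEY2 of 87, shares of 27.6% and 31.03%, of which the first was near that of all genes. From 100 to 1000 CPM, where this list stands on average, the shares of all genes were 48.3% and 20.4%. The chromatin median of −0.07 turned to 0.33 with all 12 libraries, where 53 were higher in CEY1 and 14 in CEY2. It was 0 to 2 decimals without CEY1 replicate 2. The chromodomain gene cec-8 stood out with 36.1 and 45.9 CPM in CEY1, 411.2 and 504.1 in CEY2 and 99.4 and 117.1 in CEY4 (−3.46 ± 0.11, adjusted p = 7.09e-23), followed by the dosage compensation genes dpy-27 (−1.41 ± 0.09) and sdc-2 (−1.02 ± 0.11).

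Neuronal genes were higher in CEY2 for 32 of 50 (64%, against 26.8% of all genes) and in CEY1 for 0 (median −0.91). The ankyrin gene unc-44 read 523.0 and 516.4 CPM in CEY1, 970.4 and 1014 in CEY2 and 492.9 and 503.6 in CEY4 (−0.93 ± 0.07, adjusted p = 1.14e-13). The synaptic vesicle gene snb-1 read 17.9 and 19.5 CPM against 51.3 and 46.9 (−1.39 ± 0.18) and the active zone gene unc-10 14.8 and 14.3 against 36.9 and 39.9 (−1.40 ± 0.20). Of 47 neuropeptide genes tested, 17 were higher in CEY2 (36.2%, against 26.8% of all genes), among them flp-1 (−1.79 ± 0.36) and flp-9 (−1.84 ± 0.32). In CEY1 2 were higher (4.26%, against 26.1%), among them nlp-36 (0.90 ± 0.27), which missed the threshold without CEY1 replicate 2 (0.57) or CEY2 replicate 1 (0.65). Glial genes were higher in CEY2 for 7 of 10 (70%) and in CEY1 for 1 (10%). Their median was −0.77, and −1.16 without CEY1 replicate 2. Among them daf-6 differed by −1.85 ± 0.40 and, in the other direction, fig-1 by 1.24 ± 0.28.

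Muscle genes were called more often higher in CEY2, with members on both sides. Of 39 body wall muscle genes 19 were higher in CEY2 (48.7%, against 26.8% of all genes) and 7 in CEY1 (17.9%, against 26.1%). Their median of −0.23 turned to 0.17 with all 12 libraries. The dystrophin gene dys-1 read 188.0 and 177.9 CPM against 428.1 and 461.0 (−1.28 ± 0.08) and the titin gene ttn-1 603.4 and 638.2 against 1244 and 1352 (−1.06 ± 0.07), whereas the integrin gene pat-3 was higher in CEY1, at 379.0 and 378.4 against 209.7 and 204.6 (0.87 ± 0.08). Pharynx genes were higher in CEY2 for 7 of 17 (41.2%) and in CEY1 for 1 (5.88%), with a median of −0.48. The pharyngeal myosin gene myo-2 read 200.7 and 208.9 CPM against 341.0 and 363.7 (−0.78 ± 0.08). Somatic gonad and vulva genes gave 10 higher in CEY2, such as the Notch receptor gene lin-12 (−1.87 ± 0.20), and 4 in CEY1, such as the EGF ligand gene lin-3 (0.91 ± 0.16), of 27. The median of these 27 genes, −0.26, turned to 0.14 with all 12 libraries and was −0.14 without CEY1 replicate 1. Of 13 coelomocyte and excretory cell genes 5 were higher in CEY2 (38.5%), such as exc-7 (−1.17 ± 0.26), and 1 in CEY1 (7.69%), the chloride channel gene clh-3 (0.89 ± 0.13). The median of these 13 genes, −0.14, turned to 0.27 with all 12 libraries and lay from −0.27 to −0.08 when any 1 library was left out.

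Intestinal genes were called about equally often in each direction. Of 34 tested, 10 were higher in CEY1 and 11 in CEY2 (29.4% and 32.4%), with a median of −0.01 that turned to 0.39 with all 12 libraries. From 100 to 1000 CPM, where the list stands on average, 48.3% and 20.4% of all genes were higher in CEY1 and CEY2. The acyl-CoA dehydrogenase gene acdh-1 read 1940.4 and 1913 CPM against 901.9 and 933.4 (1.07 ± 0.06, adjusted p = 3.52e-16), and the cathepsin gene cpr-1 478.0 and 565.8 against 1116 and 1211 (−1.15 ± 0.07, adjusted p = 6.31e-15). Yolk genes were split 3 and 3. The sum of the 6 was higher in CEY2, at 29331 and 29775 CPM against 22409 and 22284 CPM in CEY1, with 26846 and 26049 in CEY4. The most strongly read, vit-6, differed by −0.38 ± 0.05 (adjusted p = 5.14e-08) and turned to 0.028 with all 12 libraries, vit-2 differed by −0.48 ± 0.05 and vit-5 by −1.07 ± 0.06, while vit-3 was higher in CEY1 (0.39 ± 0.11), though not past the threshold without CEY2 replicate 2 (0.29). Reads of the near-identical vit-3, vit-4 and vit-5 may have been shared among them.

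Genes of immunity and of the handling of foreign compounds differed gene by gene. Lysozyme and saposin-like genes were higher in CEY2 for 12 of 26 (46.2%, against 26.8% of all genes) and in CEY1 for 5 (19.2%, against 26.1%). Their median was −0.56, and −0.35 without CEY1 replicate 1. In contrast to lys-4, lys-8 read 49.5 and 51.99 CPM in CEY1 and 213.2 and 210.7 in CEY2 (−2.06 ± 0.10), lys-7 23.4 and 20.2 against 96.9 and 101.4 (−2.19 ± 0.15) and the saposin-like gene spp-14 58.5 and 73.3 against 255.0 and 255.6 (−1.94 ± 0.10). Family members of one kind thus went opposite ways. C-type lectins were higher in CEY2 for 32 of 90 (35.6%, against 26.8% of all genes) and in CEY1 for 17 (18.9%, against 26.1%), with 41 not called (median −0.13). That median turned to 0.27 with all 12 libraries, was −0.44 with the 4 compared libraries alone, and lay from −0.37 to −0.25 when any 1 library was left out. Of 128 detoxification genes 61 were higher in CEY2 (47.7%) and 13 in CEY1 (10.2%), with a median of −0.75. The cytochrome P450 gene cyp-34A9 read 4.52 and 8.06 against 47.2 and 55.1 CPM (−2.97 ± 0.24). The glucuronosyltransferase gene ugt-29 read 44.3 and 57.5 against 161.6 and 186.7 CPM (−1.76 ± 0.12).

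Dauer and insulin pathway genes were higher in CEY2 for 14 of 21 (66.7%, against 26.8% of all genes) and in CEY1 for 3 (14.3%, against 26.1%). Their median was −0.93. Besides mtl-1, the desiccation protein gene lea-1 read 544.7 and 585.7 CPM in CEY1, 1418 and 1438 in CEY2 and 1068 and 1112 in CEY4 (−1.34 ± 0.07, adjusted p = 3.97e-18). The gene of the FOXO factor itself, daf-16, was higher in CEY1, at 160.9 and 145.6 against 102.4 and 93.8 CPM (0.64 ± 0.10, adjusted p = 1.76e-06). Nuclear hormone receptor genes were higher in CEY2 for 59 of 166 (35.5%, against 26.8% of all genes) and in CEY1 for 8 (4.82%, against 26.1%). A further 99 were not called (median −0.42). An exception was nhr-114, known for a role in the gut's response to diet, at 313.2 and 316.2 against 79.7 and 86.7 CPM (1.92 ± 0.10). Glutamine-rich pqn and abu genes were higher in CEY2 for 29 of 50 (58%) and in CEY1 for 4 (8%), with a median of −0.69. Among them abu-12 read 5.38 and 5.47 against 28.9 and 31.1 CPM (−2.46 ± 0.27).

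The other large families gave less. F-box and MATH genes were higher in CEY2 for 64 of 192 (33.3%, against 26.8% of all genes) and in CEY1 for 38 (19.8%, against 26.1%). Their median of −0.39 turned to 0.01 with all 12 libraries and to 0.21 at a minimum count of 50, and was −0.11 with the 4 compared libraries alone. Of 1339 genes taken by a pattern of chemoreceptor names, 33 passed the filter. Of these, 13 were higher in CEY2 (39.4%, against 26.8% of all genes) and 2 in CEY1 (6.06%, against 26.1%). Their median of −0.20 turned to 0.20 with all 12 libraries and was −0.55 without CEY1 replicate 2. The pattern also took in some genes not known as chemoreceptors, called on both sides. These values are thus not of chemoreceptors alone. Small secreted peptides of the fip, fipr and ttr families were divided 10 and 10 of 49, at 20.4% on each side and thus below both shares over all genes.

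Among genes that every cell uses, those of the mitochondrial ribosome leaned to CEY1. Of 65 tested, 39 were higher in CEY1 (60%, against 26.1% of all genes) and 0 in CEY2 (median 0.45). Among them mrps-7 read 52.5 and 55.6 against 16.7 and 12.3 CPM (1.90 ± 0.17, adjusted p = 5.47e-11). Nucleolar genes (15 higher in CEY1, 2 in CEY2, of 29, median 0.26) and proteasome genes (17 and 5 of 33, median 0.28, and 0.15 without CEY2 replicate 2) also had more members higher in CEY1. Their shares of 51.7% and 51.5% were near the 48.3% (median 0.19) of all genes from 100 to 1000 CPM, the level at which both lists stand on average. Examples were the ribosome assembly gene lpd-7 at 885.9 and 976.9 against 333.9 and 318.6 CPM (1.51 ± 0.07) and the proteasome gene pas-3 at 297.5 and 325.3 against 143.3 and 132.2 (1.18 ± 0.09). The fibrillarin gene fib-1 was higher in CEY2 (−0.34 ± 0.08), missed the threshold without CEY1 replicate 2 (−0.12), and turned to 0.071 with all 12 libraries.

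Cytoplasmic ribosomal protein genes were split, with 33 higher in CEY1 (42.9%) and 21 in CEY2 (27.3%) of 77. Their median was 0.13, and 0.21 without CEY1 replicate 1. Of all genes from 100 to 1000 CPM, where this family stands on average, 48.3% and 20.4% were higher in CEY1 and CEY2. The spread inside this family was wide: rpl-28 read 934.3 and 892.7 CPM in CEY1 and 256.4 and 203.7 in CEY2 (1.99 ± 0.08, adjusted p = 5.75e-20), rps-12 read 756.4 and 646.2 against 240.0 and 233.6 (1.56 ± 0.08), and rpl-39 read 171.2 and 177.3 against 673.6 and 621.6 (−1.89 ± 0.09, adjusted p = 6.53e-19). Translation factors (13 and 9 of 39, median −0.00), the respiratory chain (17 and 14 of 46, median −0.02), splicing factors (20 and 6 of 56, median 0.09) and chaperones (20 and 15 of 63, median 0.11) had medians close to that of all genes. The medians of translation factors and of the respiratory chain turned to 0.40 and 0.39 with all 12 libraries. Inside these lists the poly(A)-binding protein gene pab-2 was higher in CEY2, at 671.1 and 670.2 against 293.0 and 307.2 CPM (−1.16 ± 0.07), and the splicing factor gene sftb-1 was higher in CEY1, at 1468 and 1588 against 658.6 and 655.3 CPM (1.22 ± 0.06).

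**Figure D4:**
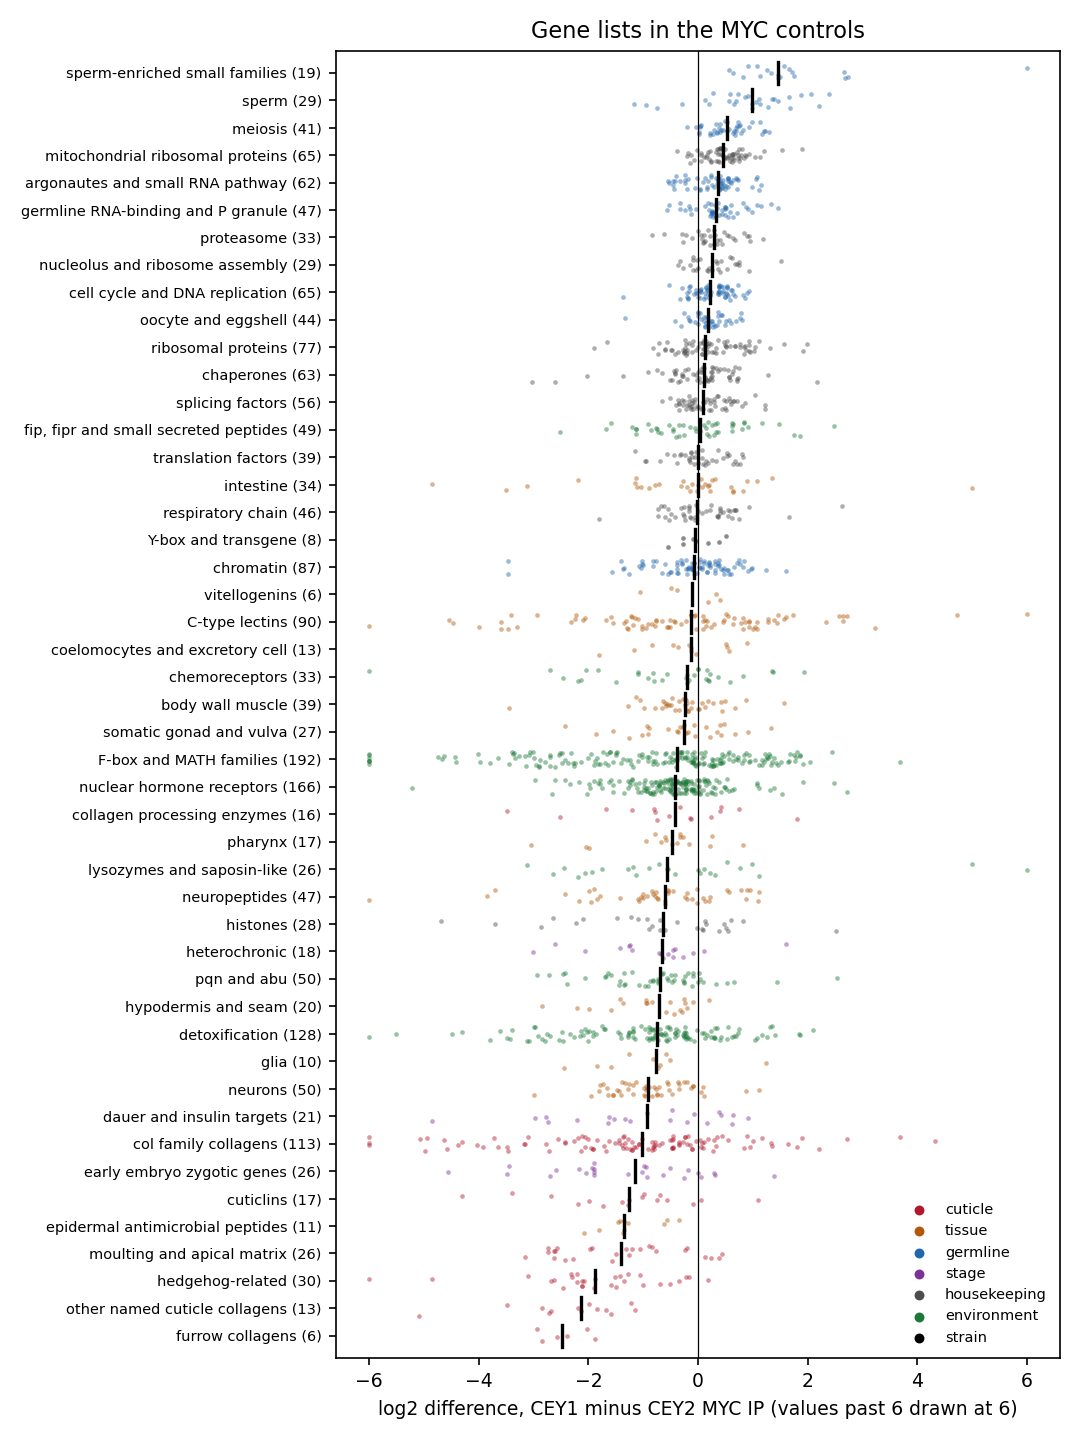
Log2 differences CEY1 minus CEY2 in the MYC libraries for the members of each gene list with at least 5 tested members (number in brackets), ordered by median. Each point is a gene, coloured by class of list, black bars are medians, and values past 6 are drawn at 6. Cuticle lists fill most of the lower end, down to a median of −2.48 for furrow collagens, and sperm and meiosis lists the upper end, up to 1.46 for the small families expressed in sperm.

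The FLAG libraries of the same strains, which share no library with the MYC comparison, had their own strain difference. There 39.7% of 11985 tested genes were higher in CEY1 and 40.1% in CEY2, and each FLAG library holds what its own tagged protein brought down besides any difference between the worms. Across the 11527 genes tested with both antibodies, the strain differences had a Pearson r of 0.434 and a Spearman rho of 0.291, a description over genes that are not independent replicates. Of the genes called and at least 2-fold higher in CEY1 MYC, 953 were tested with FLAG, of which 702 were also higher in CEY1 there and 120 lower. Of those at least 2-fold higher in CEY2 MYC, 1696 were tested, of which 867 were also higher in CEY2 and 376 lower.

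By list the antibodies differed. Furrow collagens kept their sign with FLAG (median −0.99, all 6 called higher in CEY2), as did epidermal antimicrobial peptides (−1.53), sperm genes (1.19) and the small sperm families (1.61). The 13 other named cuticle collagens, all higher in CEY2 with MYC, had 6 called in each direction with FLAG (median −0.03). Of 41 meiosis genes 16 were higher in CEY1 and 18 in CEY2 with FLAG (median −0.03). Medians of the col family (0.17), hedgehog-related genes (0.28), hypodermis and seam genes (0.77), neurons (0.55) and timing genes (0.38) were above 0 with FLAG and below 0 with MYC. Those of oocyte and eggshell genes (−0.57), mitochondrial ribosomal proteins (−0.44) and cell cycle genes (−0.36) were below 0 with FLAG and above 0 with MYC. Among single genes dpy-14 was lower in CEY1 with both antibodies (−5.09 with MYC and −6.76 with FLAG). These list medians were set side by side, and the difference between antibodies was not tested for lists.

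**Figure D5:**
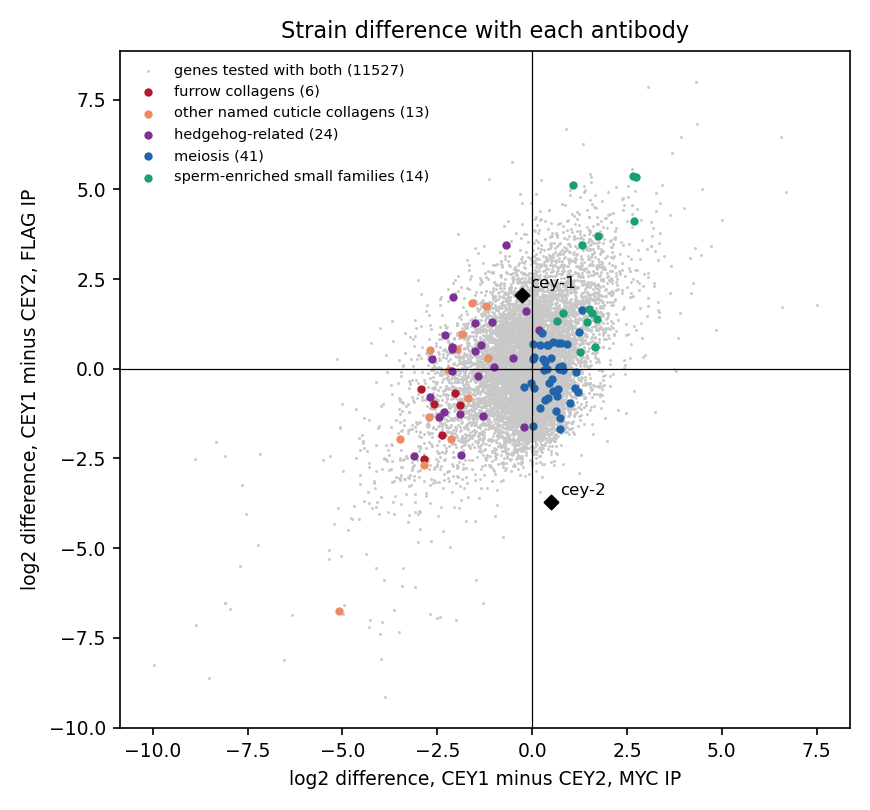
Log2 difference CEY1 minus CEY2 with the MYC antibody (x) and the FLAG antibody (y) for the 11527 genes tested with both, each from the fit of its own 6 libraries. Coloured points are members of 5 gene lists, with the number tested in the legend, and black diamonds are cey-1 and cey-2. Sperm genes lie at the upper right, furrow collagens at the lower left, and cey-1 and cey-2 far from 0 on the FLAG axis and close to 0 on the MYC axis.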

How the data were processed

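RNA from MYC IPs of 2 strains was compared. The authors' deposited raw table holds read counts per gene and library for 20182 genes, of which 18778 matched a gene symbol by identifier. Its log2 normalized companion was not used. Aligner, genome build, annotation, strand setting and the treatment of shared reads are, for these counts, not given in the sources used here. RNA was taken from beads with Trizol and libraries were made with the ScriptSeq v2 kit, per the labels' protocols.

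The count analysis used edgeR 4.0.16 under R 4.3.3: filterByExpr at a minimum count of 10 left 12573 genes, TMM scaled the libraries, and quasi-likelihood F tests compared strain means in a fit of the 6 MYC libraries, whose spread (common biological coefficient of variation 0.0742) was wider than that of the FLAG libraries (0.0260). Tests were two-sided, with Benjamini-Hochberg adjustment at 0.05, and the SE follows from the F statistic. The FLAG libraries had a fit of their own. On simulated data for CEY1 against CEY2 MYC (11969 genes) the test recovered 55.6% of genes changed by 1 on the log2 scale and 84.9% of those changed by 2, with 2.90% false calls. There 99 and 93 genes were changed, against 52.9% of genes called in the data. These rates, and scaling that takes most genes as unchanged, were thus not tested at the extent of difference seen here. Intervals cover counting error only, since PCR duplicates cannot be told from molecules without molecular identifiers. Antisense and overlapping genes cannot be told apart where strand was ignored.

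The comparison and the 49 gene lists were chosen with earlier results of these data known, and the pattern of chemoreceptor names was corrected after the counts were seen. The corrected pattern still took in some genes not known as chemoreceptors. Genes were named by rule: the 12 largest called differences in each direction whose higher group averaged 10 CPM or more, with libraries that do not overlap, and a standard symbol, leaving out histones, major sperm proteins and near-identical copies; the Y-box and transgene list; and from every list the 4 members of lowest adjusted p (or fewer), plus an exception in the other direction. The text describes a part of those. Alternatives were other sets of libraries, RLE and total count scaling, DESeq2 1.42.0, other filters, a replicate block and leaving out each library.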

Additional observations from a re-analysis of the deposited data

Results flagged for a closer look

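Of 32 genes compared between antibodies, 3 were called in opposite directions by MYC and FLAG and also differed in a test of the difference itself, the interaction of strain and antibody in an edgeR fit of all 12 libraries scaled within each antibody. For cey-1 the log2 difference CEY1 minus CEY2 was −0.27 with MYC and 2.07 with FLAG, and MYC minus FLAG was −2.30 ± 0.08 (SE, adjusted p = 1.23e-26). For cey-2 it was 0.51 and −3.70, and MYC minus FLAG was 4.24 ± 0.08 (adjusted p = 2.55e-35). For cey-3, whose protein was not tagged, it was 0.39 and −0.40, and MYC minus FLAG was 0.82 ± 0.08 (adjusted p = 1.86e-11). No group held enough libraries for a search for outlying ones.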

How the results depend on the processing

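The counts of genes higher in CEY1 (3283) and in CEY2 (3372) kept within 1.5 times their value under every alternative run except one. With all 12 libraries in one fit, 6029 genes were higher in CEY1 and 2253 in CEY2, and the median of all genes moved by 0.40; scaling within each antibody, an alternative chosen after seeing the data, gave 3716 and 3856. Without each library in turn the counts ran from 2629 to 3286 and from 2533 to 3384. RLE scaling gave 3290 and 3373, total count scaling 3025 and 3593, the 4 compared libraries alone 3162 and 3254, no filter 3570 and 3126, a minimum count of 50 2539 and 2720, and DESeq2 2684 and 2473. With a replicate block the counts were 3272 and 3351 and no gene named changed its call. Deviations of same-numbered libraries had correlations of 0.00213 to 0.0202 between MYC groups, so no shared effect of the replicate number was seen. Such values cannot tell whether same-numbered samples were handled together.

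Of 140 genes named, 6 changed sign with all 12 libraries: cey-1 (0.13), dpy-30 (0.36), fib-1 (0.071), lin-28 (0.12), unc-119 (0.30) and vit-6 (0.028). The uncalled dpy-30 also turned positive with no filter (0.024), with DESeq2 (0.012), without CEY2 replicate 2 (0.13) and without CEY1 replicate 2 (0.37), with −0.47 as its lowest value without a library. For unc-119 leaving out a library gave −0.40 to 0.23, the last without CEY1 replicate 2. With all 12 libraries 3 more lost their call, vab-10 (−0.033), vit-2 (−0.078) and wago-1 (−0.12). Medians of the cuticle, moulting, hedgehog-related, neuron, meiosis and sperm lists kept their sign under every setting run. Apart from the shift of all genes with all 12 libraries, the cause of these changes was not tested. At 3.35 counts per CPM in the shallowest library, differences of genes under a few CPM rest on few counts, and 2 libraries a group limit the spread estimate.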
